A study of Mus musculus with 12 samples.

Results

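AMPA and NMDA receptors are the glutamate-gated channels of excitatory synapses, and 10 genes encoding their subunits were followed here in the medial prefrontal cortex of stressed and unstressed mice of 2 strains. The members were the rows of the expression table whose gene name was Gria1, Gria2, Gria3 or Gria4 (the 4 AMPA subunits) or Grin1, Grin2a, Grin2b, Grin2c, Grin2d or Grin3a (6 NMDA subunits), summed per name. They are 10 of the 55678 gene names in the table and 10 of the 16423 that passed a filter of at least 1 TPM in at least 3 libraries. TPM is abundance corrected for transcript length and scaled to the same total in every library, so levels of different genes can be compared on it.

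The study set C57BL/6JmsSlc mice (B6) beside BALB/cCrSlc mice (BALB/c) and asked how the physiology, behaviour and prefrontal transcriptome of each strain respond to chronic restraint stress (CRS). CRS mice spent 6 h of each of 21 days in a restrainer in the home cage, and control mice were handled without restraint. All mice were 9 to 10 weeks old, carried no introduced allele named in the labels, and went through behavioural tests before a 1.5 mm punch of prefrontal tissue was taken. Each of the 4 groups held 3 libraries, named here by the number in the sample title: B6 control 2, 3 and 9, B6 CRS 12, 13 and 14, BALB/c control 5, 9 and 10, and BALB/c CRS 12, 13 and 15. The titles number the samples without saying more of the animals, so p-values measure the spread between these libraries.

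AMPA receptors are tetramers that carry the fast current of the synapse. GluA1, encoded by Gria1, is the subunit whose delivery to synapses is regulated during plasticity, and GluA2, encoded by Gria2, keeps calcium out of the channel once its pore codon has been edited in the RNA. NMDA receptors need glutamate, a co-agonist and depolarisation to open. Every NMDA receptor contains GluN1 (Grin1), and the GluN2 subunits (Grin2a to Grin2d) set its kinetics, with GluN2B prominent early in life and GluN2A gaining during cortical maturation. GluN3A (Grin3a) lowers calcium entry.

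The pore codons are shown because, at the channel's narrowest point, they differ between the AMPA genes and the NMDA genes printed here. The windows around them also show how alike the AMPA genes are where short reads must be assigned. The sequences are 39 bases of the GENCODE M21 transcripts (GRCm38), 5′ to 3′ on the coding strand, with the codon of the pore-loop glutamine (AMPA) or asparagine (NMDA) in capitals.
Gria1: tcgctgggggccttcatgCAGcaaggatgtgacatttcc
Gria2: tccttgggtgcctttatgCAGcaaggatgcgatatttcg
Gria3: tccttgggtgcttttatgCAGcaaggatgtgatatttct
Gria4: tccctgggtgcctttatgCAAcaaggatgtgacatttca
Grin1: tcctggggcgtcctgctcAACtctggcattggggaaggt
Grin2a: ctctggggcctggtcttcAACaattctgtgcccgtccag
The genomic Gria2 codon reads CAG, as in Gria1 and Gria3. The deposited values hold no reads, so editing was not measured. Over this window Gria2 and Gria3 were identical at 36 of 39 bases, differing by C12T, C30T and G39T (Gria2 base, position from 1 at the 5′ end of the window, Gria3 base). Gria1 and Gria2 were identical at 32 of 39 bases.

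Over whole transcripts the AMPA genes were still separable. Of the distinct 31-base words in the M21 transcripts, 0.282% of those of Gria1, 1.36% of Gria2, 1.45% of Gria3 and 0.975% of Gria4 occurred in another gene on the same strand. In M21 the AMPA genes lie on 4 chromosomes: Gria1 at chr11:57011387-57330244 (plus strand), Gria2 at chr3:80681450-80802835 (minus), Gria3 at chrX:41400854-41678601 (plus) and Gria4 at chr9:4417896-4796234 (minus). The NMDA genes were found at chr2:25291181-25319187 (Grin1), chr16:9567898-9995560 (Grin2a), chr6:135713233-136173511 (Grin2b), chr11:115249169-115267243 (Grin2c), chr7:45831883-45878378 (Grin2d) and chr4:49661611-49845744 (Grin3a), all on the minus strand and all protein coding.

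Some NMDA genes share sequence with other genes. Of the words of Grin2a, 12.1% occurred in other genes on the same strand, most often in Gm7328, which was listed at no more than 0.113 TPM in any library. Of those of Grin1, 10.7% lay on the other strand of other genes, most often the antisense gene Grin1os, which reached at most 0.0318 TPM. For Grin2d, 8.62% of the words lay on the other strand of other genes, with 643 exonic bases overlapped by Gm45441. Gm45441 was at 5.38 to 11.3 TPM (mean 7.48 TPM), beside 3.73 to 6.58 TPM (mean 4.87 TPM) for Grin2d. The level of Grin2d is therefore uncertain if the quantification did not use strand. Whether it did is not given in the sources used here.

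Several libraries differed in markers of other cell types, and the part of these in the members' values was not tested. A score of 12 striatal neuron genes (mean log2(TPM + 1)) ran from 3.03 to 7.12 in B6 controls, 5.61 to 6.84 in B6 CRS, 2.78 to 4.28 in BALB/c controls and 2.87 to 3.12 in BALB/c CRS. Summed, these genes reached 234 to 3122, 1075 to 2551, 137 to 433 and 156 to 207 TPM, and none of the 12 was at 0 in any library. A score of 10 oligodendrocyte lineage genes was 6.30 to 7.71 in B6 controls, 6.46 to 7.42 in B6 CRS, 4.76 to 6.35 in BALB/c controls and 4.805 to 5.85 in BALB/c CRS; in sums these were 2501 to 9422, 2754 to 7626, 539 to 3042 and 587 to 1491 TPM. The cortical excitatory marker Slc17a7 was present in all 12 libraries, at 390 TPM (B6 CRS 12) to 1074 TPM (B6 control 9). In bulk tissue, fewer cells of a type and less RNA per cell cannot be told apart. B6 control 2 had the highest striatal score, and BALB/c CRS 12 had the lowest scaling factor (0.876, median of ratios to the other libraries), so results are also given without these 2 libraries where that matters.

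Gria2 and Grin1 were the most abundant members and Grin2d the least. Over the 12 libraries the mean levels were 203 TPM for Gria2, 181 TPM for Grin1, 135 TPM for Gria1, 88.1 TPM for Gria3, 34.6 TPM for Gria4, 27.2 TPM for Grin2b, 18.4 TPM for Grin2a, 13.5 TPM for Grin2c, 12.6 TPM for Grin3a and 4.87 TPM for Grin2d. Neighbours in this order kept it in most libraries: Gria2 was above Grin1 in 12 of 12, Grin1 above Gria1 in 11, Gria1 above Gria3 in 11 and Gria3 above Gria4 in 12. Gria4 was above Grin2b in 11 of 12, Grin2b above Grin2a in 12, Grin2a above Grin2c in 10 and Grin3a above Grin2d in 12. Grin2c and Grin3a traded places, with Grin2c higher in 7 of 12 libraries. Only the ranges of Gria3 and Gria4, and those of Grin3a and Grin2d, did not overlap among neighbours. Grin2a varied most between libraries, with a coefficient of variation of 27.7%, and Gria2 least, at 13.3%. Grin3b, the remaining NMDA subunit gene, was at most 0.116 TPM and was not tested.

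**Figure D1:**
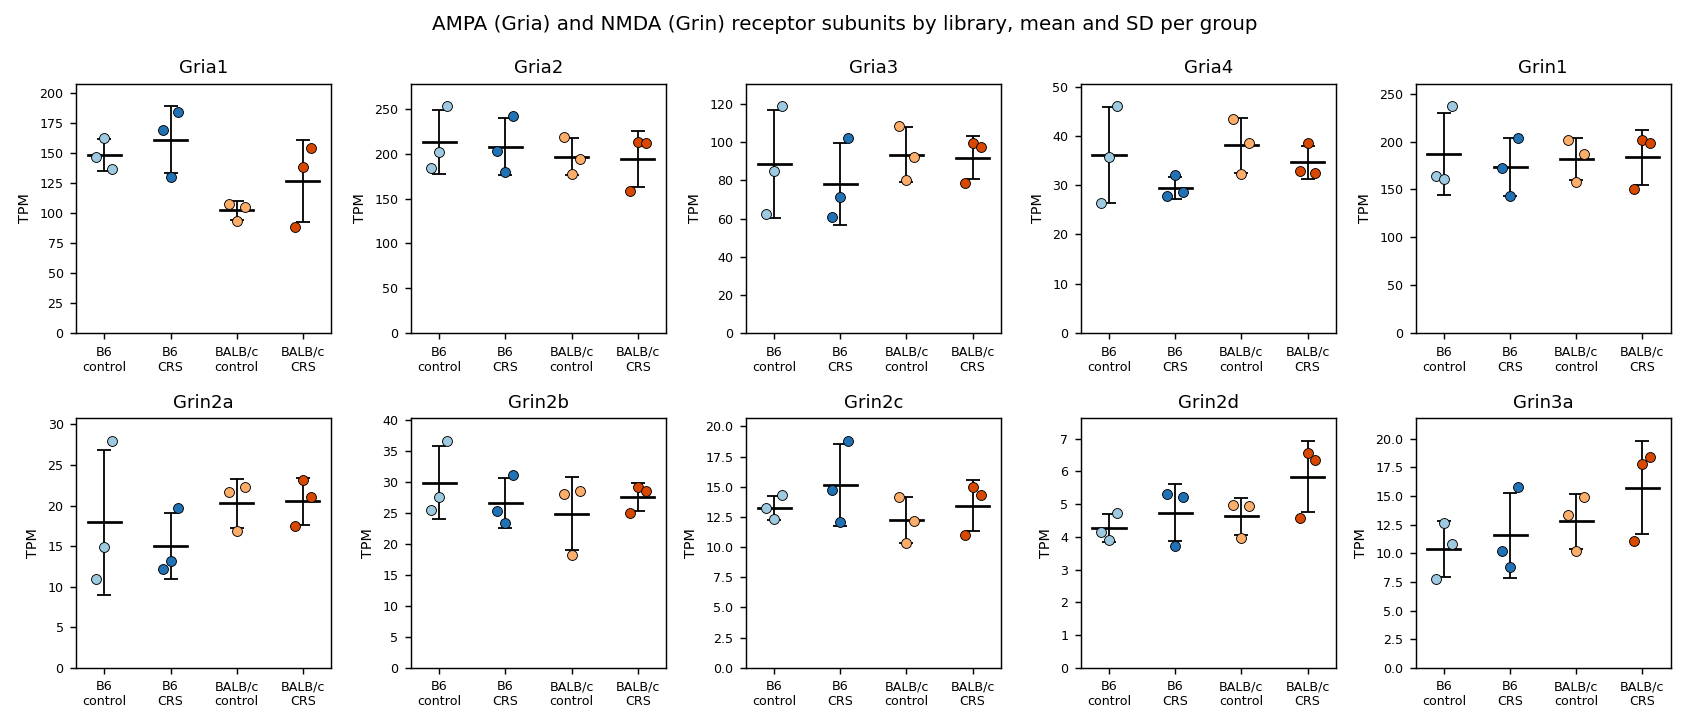
TPM of each subunit gene (vertical axis, from 0) in the 4 groups; each point is 1 library, the bar is the group mean and the whiskers are 1 SD (n = 3). Gria1 is the only gene whose BALB/c control points all lie below the B6 control points. Gria2, Gria3, Gria4, Grin1, Grin2a and Grin2b have their largest SD in B6 controls.

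Of the 10 genes, Gria1 had the largest strain difference in controls, with the lower levels in BALB/c. It stood at 147, 163 and 136 TPM in B6 controls 2, 3 and 9 and at 108, 93.5 and 105 TPM in BALB/c controls 5, 9 and 10. All 3 BALB/c controls lay below all 3 B6 controls. Under CRS the levels were 169, 129.8 and 184 TPM in B6 (12, 13 and 14) and 88.2, 138 and 154 TPM in BALB/c (12, 13 and 15). There the groups overlapped, since 2 BALB/c libraries lay above B6 CRS 13 and BALB/c CRS 12 was the lowest of all 12.

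The Gria1 difference (BALB/c minus B6) on the log2(TPM + 1) scale was -0.54 in controls (SE 0.19, 95% interval -0.95 to -0.13, unadjusted p 0.0148, adjusted p 0.145, limma over all tested genes) and -0.37 under CRS (SE 0.19, adjusted p 0.265, limma). Neither passed the threshold of an adjusted p under 0.05. Averaged over the treatments, a contrast added after the data had been seen, the difference was -0.45 (SE 0.13, 95% interval -0.74 to -0.16) and passed, with an adjusted p of 0.0355 (limma). In that contrast 18.4% of all tested genes passed and 32% had an unadjusted p under 0.05, so 1 call among 10 members is no more than the background. The averaged call was lost on leaving out any 1 of B6 control 2 or 3, B6 CRS 12 or 14, or BALB/c control 5, 9 or 10 (adjusted p 0.0557 to 0.0801, limma). It was also lost without both B6 control 2 and BALB/c CRS 12 (-0.34, adjusted p 0.0764, limma), with no filter on low values (adjusted p 0.0739, limma), and with the striatal (-0.47, adjusted p 0.31, limma) or oligodendrocyte score (-0.36, adjusted p 0.741, limma) as a covariate. With these scores the calls over all tested genes fell from 3021 to 539 and 368 in the averaged contrast (limma). BALB/c CRS 12 weighed most on the size: without it the difference under CRS was -0.13, and the difference in controls, itself unmoved at -0.54, passed (adjusted p 0.0402, limma).

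Strain differences of the other AMPA subunits did not pass the test. Gria2 levels were 184, 202 and 253 TPM in B6 controls and 219, 178 and 194 TPM in BALB/c controls. Under CRS it was at 203, 179 and 242 TPM in B6 and 158, 213 and 212 TPM in BALB/c. The groups overlapped in both treatments, with log2 differences of -0.11 in controls (adjusted p 0.784, limma) and -0.10 under CRS (adjusted p 0.755, limma). In controls the median difference over all tested genes was itself -0.10, and under median-of-ratios scaling the Gria2 difference was 0.02. With the striatal score as a covariate it was -0.29 in controls (adjusted p 0.395, limma) and -0.49 under CRS (adjusted p 0.396, limma).

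Gria3, whose product GluA3 pairs with GluA2 in receptors that cycle constitutively, spread widely within B6. Its levels were 62.5, 85.0 and 119 TPM in B6 controls and 60.7, 71.1 and 102 TPM in B6 CRS. In BALB/c they were 109, 80.0 and 92.2 TPM in controls and 78.9, 99.4 and 97.5 TPM in CRS. The lowest values were in B6 control 2 and B6 CRS 12, the libraries with the highest striatal scores of their groups (7.12 and 6.84), and the highest in B6 control 9, with the lowest (3.03). The log2 differences were 0.11 in controls (adjusted p 0.849, limma) and 0.26 under CRS (adjusted p 0.549, limma). With the striatal score as a covariate they were -0.26 and -0.54 (adjusted p 0.451 and 0.372, limma). None of these differences passed. Under CRS the striatal scores of the strains did not overlap, so strain and score cannot be told apart there.

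Gria4 encodes the GluA4 subunit typical of parvalbumin interneurons. The B6 controls held 26.5, 35.7 and 46.0 TPM of it and the BALB/c controls 43.4, 32.2 and 38.5 TPM. Under CRS it was at 27.9, 32.0 and 28.5 TPM in B6 and 32.9, 38.5 and 32.5 TPM in BALB/c, and these CRS groups did not overlap. The gap was narrow, 32.0 against 32.5 TPM, and the log2 difference of 0.22 did not pass (adjusted p 0.489, limma); in controls it was 0.10 (adjusted p 0.821, limma). With the striatal score as a covariate the CRS difference was -0.36 (adjusted p 0.476, limma).

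Gria1 in controls and Gria4 under CRS were thus 1 of 10 members each whose strain groups did not overlap, beside 22.9% of all tested genes in controls and 29.3% under CRS. No member was called in either strain contrast (limma, 0 of 10), where 4.73% of all genes were called in controls and 7.7% under CRS. At an unadjusted p under 0.05, 1 member (Gria1) passed in controls and 0 under CRS, beside 18.7% and 23.8% of all genes. Under CRS that number was 2 with median-of-ratios scaling and 4 with the striatal score as a covariate, with 0 called in both. Over all 16423 tested genes, 1410 and 242 were called in these fits (limma). The share of all genes at an unadjusted p under 0.05 is not given for them, so these member counts have no background. The median difference of the 10 members was 0.04 in controls and 0.16 under CRS, and that of all genes was -0.10 and -0.06.

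**Figure D2:**
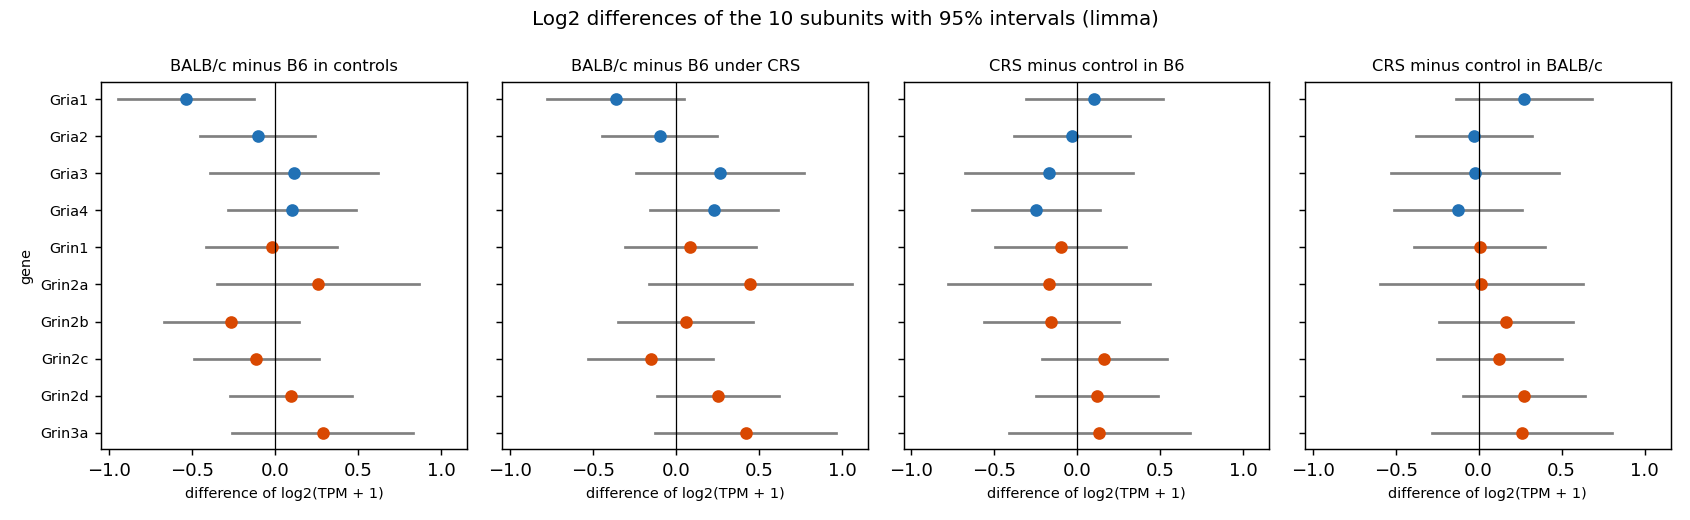
Differences of log2(TPM + 1) (horizontal axis) for the 10 genes in 4 contrasts; points are limma estimates and lines their 95% intervals, with AMPA genes in blue and NMDA genes in orange. Only the interval of Gria1 in controls, from -0.95 to -0.13, leaves out 0.

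The obligatory NMDA subunit gene Grin1 showed no detectable strain difference. Its levels were 164, 161 and 237 TPM in B6 controls and 201, 158 and 187 TPM in BALB/c controls, and under CRS they were 172, 143 and 204 TPM in B6 and 151, 201 and 198 TPM in BALB/c. The groups overlapped throughout. Its log2 differences were -0.02 in controls (95% interval -0.42 to 0.37, adjusted p 0.969, limma) and 0.09 under CRS (95% interval -0.31 to 0.48, adjusted p 0.825, limma); under median-of-ratios scaling the first was 0.10.

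Grin2a, encoding the GluN2A subunit of mature cortical synapses, had the largest ratio of highest to lowest library of the 10 genes, 2.55. That of Grin3a was 2.38. B6 controls 2, 3 and 9 were at 10.9, 14.9 and 28.0 TPM, and B6 CRS 12, 13 and 14 at 12.2, 13.1 and 19.7 TPM. BALB/c libraries lay closer together, at 21.7, 16.8 and 22.3 TPM in controls and 17.4, 23.1 and 21.0 TPM in CRS. B6 control 2 and B6 control 9 were the lowest and the highest of all 12 libraries. The log2 differences were 0.26 in controls (adjusted p 0.678, limma) and 0.45 under CRS (95% interval -0.16 to 1.06, adjusted p 0.369, limma). With the striatal score as a covariate both turned negative, to -0.22 and -0.58 (adjusted p 0.556 and 0.372, limma).

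Grin2b, encoding GluN2B, had levels of 25.5, 27.5 and 36.6 TPM in B6 controls and 28.0, 18.2 and 28.5 TPM in BALB/c controls. Under CRS it was at 25.3, 23.3 and 31.1 TPM in B6 and 24.9, 29.2 and 28.4 TPM in BALB/c. BALB/c control 9 was the lowest and B6 control 9 the highest. The log2 differences were -0.26 in controls (adjusted p 0.498, limma) and 0.06 under CRS (adjusted p 0.888, limma), with overlapping groups in each. The difference in controls was -0.061 without BALB/c control 9 and -0.11 without B6 control 9, and -0.52 or -0.66 with the striatal or the oligodendrocyte score as a covariate (adjusted p 0.128 and 0.248, limma). Under CRS it was -0.49 and -0.34 with these scores (adjusted p 0.419 and 0.781, limma).

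The 3 scarcer NMDA genes did not pass either. Grin2c, which in the forebrain is expressed largely by astrocytes, ranged from 10.4 TPM (BALB/c control 9) to 18.8 TPM (B6 CRS 14), with log2 differences of -0.11 in controls (adjusted p 0.784, limma) and -0.15 under CRS (adjusted p 0.646, limma). The summed astrocyte markers were 1529.5 to 1637 TPM in B6 controls, 1401 to 1572 TPM in B6 CRS, 1178 to 1252 TPM in BALB/c controls and 1041 to 1315 TPM in BALB/c CRS, with 0 of 8 markers at 0 in any library. The part of these markers in the Grin2c values was not tested. Grin2d, encoding a subunit of slow NMDA currents found in interneurons, ranged from 3.73 TPM (B6 CRS 13) to 6.58 TPM (BALB/c CRS 13) and differed by 0.09 in controls (adjusted p 0.823, limma) and 0.25 under CRS (adjusted p 0.406, limma).

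Grin3a levels were 7.73, 12.6 and 10.8 TPM in B6 controls and 13.4, 10.2 and 14.9 TPM in BALB/c controls. Under CRS it was at 10.2, 8.80 and 15.8 TPM in B6 and 11.1, 17.8 and 18.4 TPM in BALB/c. BALB/c CRS 13 and 15 were the highest of the 12 libraries, but B6 CRS 14 exceeded BALB/c CRS 12, and the groups overlapped. The log2 differences were 0.29 in controls (adjusted p 0.595, limma) and 0.42 under CRS (95% interval -0.13 to 0.96, adjusted p 0.343, limma). The latter turned to -0.15 with the striatal score as a covariate (adjusted p 0.904, limma).

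Restraint moved none of the 10 genes past the threshold in either strain (limma, 0 of 10 called, also 0 of 10 at an unadjusted p under 0.05). The background was low: 0% of all genes were called in B6 and 0.00609% in BALB/c, with 4.82% and 3.03% at an unadjusted p under 0.05. No member separated control from CRS libraries in either strain, beside 8.33% of all genes in B6 and 7.39% in BALB/c. Averaged over the strains 0.00609% of genes were called and 5.17% had an unadjusted p under 0.05, and for the interaction, the difference between the strains' responses, 0% and 2.7%; in both, 0 of 10 members were called and 0 had an unadjusted p under 0.05 (limma).

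The largest restraint difference in B6 was that of Gria4, from 36.1 ± 9.77 TPM in controls to 29.5 ± 2.25 TPM in CRS (SD, n = 3 each). On the log2 scale it was -0.25 (95% interval -0.64 to 0.14, adjusted p 1, limma), and with the striatal score as a covariate it was -0.0038. Without B6 control 9 it was -0.062 and without B6 control 2 it was -0.45. In BALB/c the largest was that of Gria1, from 102 ± 7.55 TPM in controls to 127 ± 34.2 TPM in CRS (SD, n = 3 each), a log2 difference of 0.27 (95% interval -0.14 to 0.68, adjusted p 1, limma). For Gria1, BALB/c CRS 13 and 15 lay above every BALB/c control and BALB/c CRS 12 below every one. The Gria1 difference was 0.51 without BALB/c CRS 12 and 0.11 without BALB/c CRS 15. Grin2d differed by nearly as much in BALB/c, 0.27 (95% interval -0.095 to 0.64), and Grin3a by 0.26. Grin2b had the largest interaction, 0.32 (95% interval -0.25 to 0.90, adjusted p 1, limma), which was 0.032 with the striatal score as a covariate, and 0.12 without BALB/c control 9 and 0.17 without B6 control 9. Grin3a had the largest difference averaged over strains, 0.20 (95% interval -0.19 to 0.58, adjusted p 0.967, limma), or 0.082 without B6 CRS 14. The intervals bound what these data could show: for Gria2, the least variable member, they ran from -0.38 to 0.31 in B6 and from -0.37 to 0.32 in BALB/c.

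Gria2 and Grin1 held steady shares of their families. Summed over the 4 AMPA genes, the level ranged from 358 TPM (BALB/c CRS 12) to 557 TPM (B6 CRS 14), while the share of Gria2 in the sum stayed between 41.7% and 46.4% (coefficient of variation 3.08%, against 13.5% for the sum). Grin1 likewise held 68.6% to 72.7% of the summed NMDA level, which itself ranged from 204 to 331 TPM. As Grin1 makes up most of that sum, its share is steady partly by arithmetic. Within this narrow range BALB/c CRS, at 68.579% to 69.155%, lay below BALB/c controls (69.343% to 72.617%) and B6 CRS (69.235% to 71.829%). Shares and ratios of members are given as descriptions, with no test, and they are tied to one another by arithmetic. Among single genes, the strains did not overlap for 22.9% of all tested genes in controls and 29.3% under CRS. Within BALB/c, control and CRS did not overlap for 7.39%. No such background was computed for shares and ratios.

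The shares of the other 3 AMPA genes varied more than the sum did, with coefficients of variation of 16.9% (Gria1), 15.5% (Gria3) and 17.4% (Gria4). The Gria1 share was 35.0%, 33.5% and 24.6% in B6 controls 2, 3 and 9 and 22.5%, 24.4% and 24.4% in BALB/c controls 5, 9 and 10. Under CRS it was 36.7%, 31.5% and 33.1% in B6 and 24.6%, 28.2% and 31.02% in BALB/c. BALB/c lay below B6 in both treatments, but B6 control 9 differed from the BALB/c controls by very little. The Gria3 share was 13.2% to 18.4% in B6 CRS and 19.7% to 22.0% in BALB/c CRS, without overlap, and in controls it was 14.9% to 21.4% in B6 and 20.8% to 22.7% in BALB/c, with overlap. For Gria4 it was the controls that did not overlap, at 6.30% to 8.30% in B6 and 8.40% to 9.07% in BALB/c, while under CRS its share was 5.13% to 7.77% in B6 and 6.55% to 9.19% in BALB/c.

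The ratio of Gria1 to Gria2 was 0.492, 0.526 and 0.541 in BALB/c controls 5, 9 and 10 and 0.557, 0.648 and 0.726 in BALB/c CRS 12, 13 and 15. Every BALB/c CRS library lay above every BALB/c control, the nearest pair by little. In B6 the ratio was 0.797, 0.804 and 0.538 in controls and 0.832, 0.723 and 0.761 in CRS, with overlap. B6 control 9 again stood with the BALB/c controls. The Gria2 share in BALB/c went the other way, from 45.2% to 46.4% in controls to 42.8% to 44.2% in CRS.

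Among NMDA subunits, the ratio of Grin2a to Grin2b was higher in BALB/c in both treatments. It was 0.429, 0.542 and 0.764 in B6 controls 2, 3 and 9 and 0.776, 0.927 and 0.783 in BALB/c controls 5, 9 and 10. In CRS libraries it was 0.482, 0.562 and 0.636 in B6 and 0.699, 0.791 and 0.739 in BALB/c. The strains did not overlap in either treatment, though B6 control 9, at 0.764, came close to the lowest BALB/c control, at 0.776. Group means were 0.578 ± 0.171 and 0.829 ± 0.085 in controls, B6 then BALB/c, and 0.560 ± 0.077 and 0.743 ± 0.046 under CRS (SD, n = 3 each). Control and CRS libraries overlapped within each strain.

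**Figure D3:**
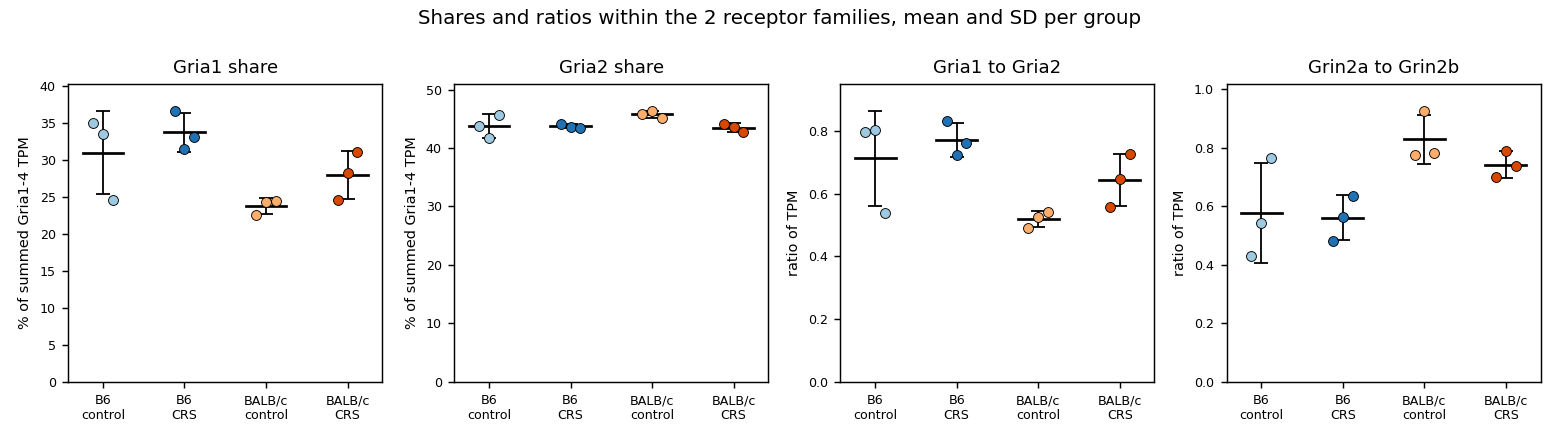
Share of Gria1 and of Gria2 in the summed AMPA level (percent, left panels) and the ratios Gria1 to Gria2 and Grin2a to Grin2b (right panels) in the 4 groups; points are libraries, bars means and whiskers 1 SD (n = 3). The Gria2 share lies between 41.7% and 46.4% in all 12 libraries, while the Grin2a to Grin2b ratio is higher in BALB/c than in B6 in both treatments.

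The Grin2a to Grin2b ratio ran against the striatal score within B6. The 6 B6 libraries ordered by falling striatal score, from 7.12 in control 2 through 6.84, 6.48 and 5.61 in CRS 12, 13 and 14 to 4.59 and 3.03 in controls 3 and 9, had ratios of 0.429, 0.482, 0.562, 0.636, 0.542 and 0.764. BALB/c did not follow this: its control 9 had the highest score of that strain, 4.28, and the highest ratio of all libraries, 0.927. B6 control 3, at a score of 4.59, had 0.542. B6 control 9, whose striatal score was inside the BALB/c range, had a ratio inside the range of the 6 BALB/c libraries (0.699 to 0.927) and a Gria1 to Gria2 ratio of 0.538 inside that of BALB/c controls. In the same order by score the Gria1 to Gria2 ratios of the 6 B6 libraries were 0.797, 0.832, 0.723, 0.761, 0.804 and 0.538, so the first 5 lay between 0.723 and 0.832 whatever their score. The part of striatal markers in these ratios was not tested. Strain and striatal score cannot be told apart under CRS, where all 3 B6 libraries scored above all 3 BALB/c libraries and 10 of the 12 striatal genes were called lower in BALB/c (limma).

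**Figure D4:**
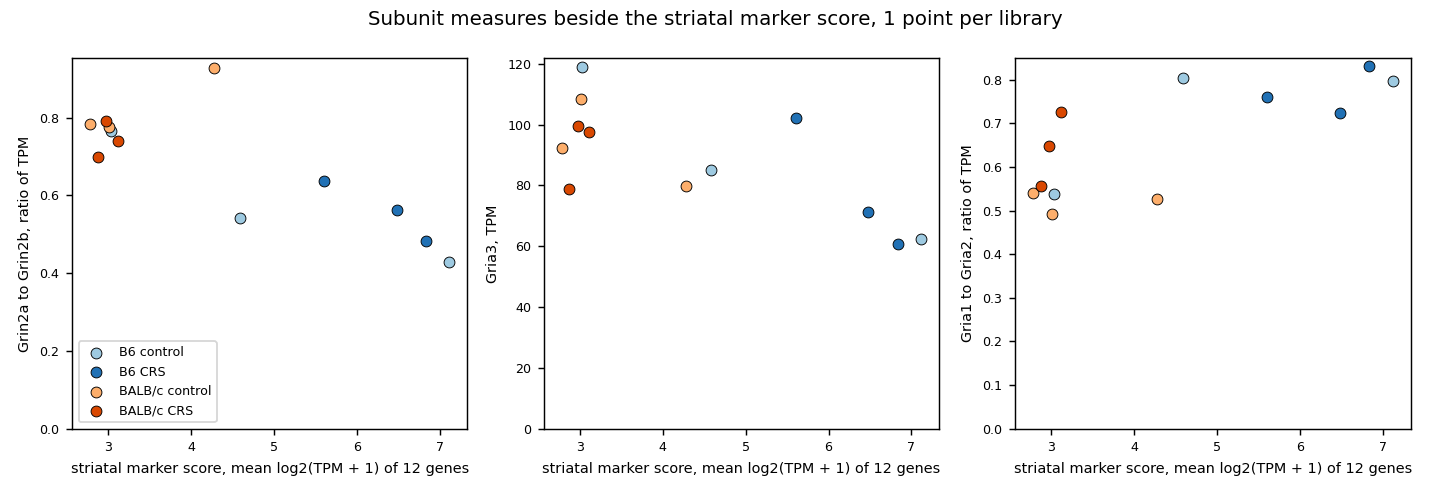
The Grin2a to Grin2b ratio, Gria3 TPM and the Gria1 to Gria2 ratio (vertical axes) against the striatal marker score of the same library (horizontal axis, mean log2(TPM + 1) of 12 genes), 1 point per library coloured by group. The light blue point at a score of 3.03 is B6 control 9, which lies beside the BALB/c points for both ratios.

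The sum of the AMPA genes was 1.59 to 2.10 times that of the NMDA genes. Under CRS this ratio was 1.92, 2.02 and 1.89 in B6 and 1.63, 1.67 and 1.73 in BALB/c, without overlap. In controls it was 1.87, 2.10 and 1.67 in B6 and 1.69, 1.77 and 1.59 in BALB/c, with overlap through B6 control 9. The summed GluN2 genes stood at 0.313 to 0.385 of Grin1, with all groups overlapping.

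The table holds several rows per gene without transcript identifiers, so rows could only be ranked. For Grin2a and Grin2b a single row carried on average 94.1% and 95.3% of the gene, and for Gria3 82.7%. Gria1 was split between 2 rows holding 98.5% together, which were 82.5 ± 4.27 and 62.6 ± 15.5 TPM in B6 controls and 56.2 ± 3.97 and 44.4 ± 6.80 TPM in BALB/c controls (SD, n = 3 each). The first of these rows separated the strains in controls and the second did not. Grin1 was spread over 14 rows, the leading one holding 39.0% to 58.5% of the gene.

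Libraries of a group that were high in one member tended to be high in the others. Deviations of log2(TPM + 1) from the group means had a median Pearson correlation of 0.743 over the 45 pairs of members (12 libraries), or 0.566 after median-of-ratios scaling. These correlations are descriptions, since the genes share libraries, tissue make-up and scaling. The median over pairs of other genes is not given here, so 0.743 cannot be read as particular to the members. Gria2 and Grin1 were the closest pair (0.963, scaled 0.943), followed by Gria3 and Grin2a (0.949, scaled 0.937). Gria1 and Gria4 were the least alike, at -0.03 and -0.55 scaled.

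**Figure D5:**
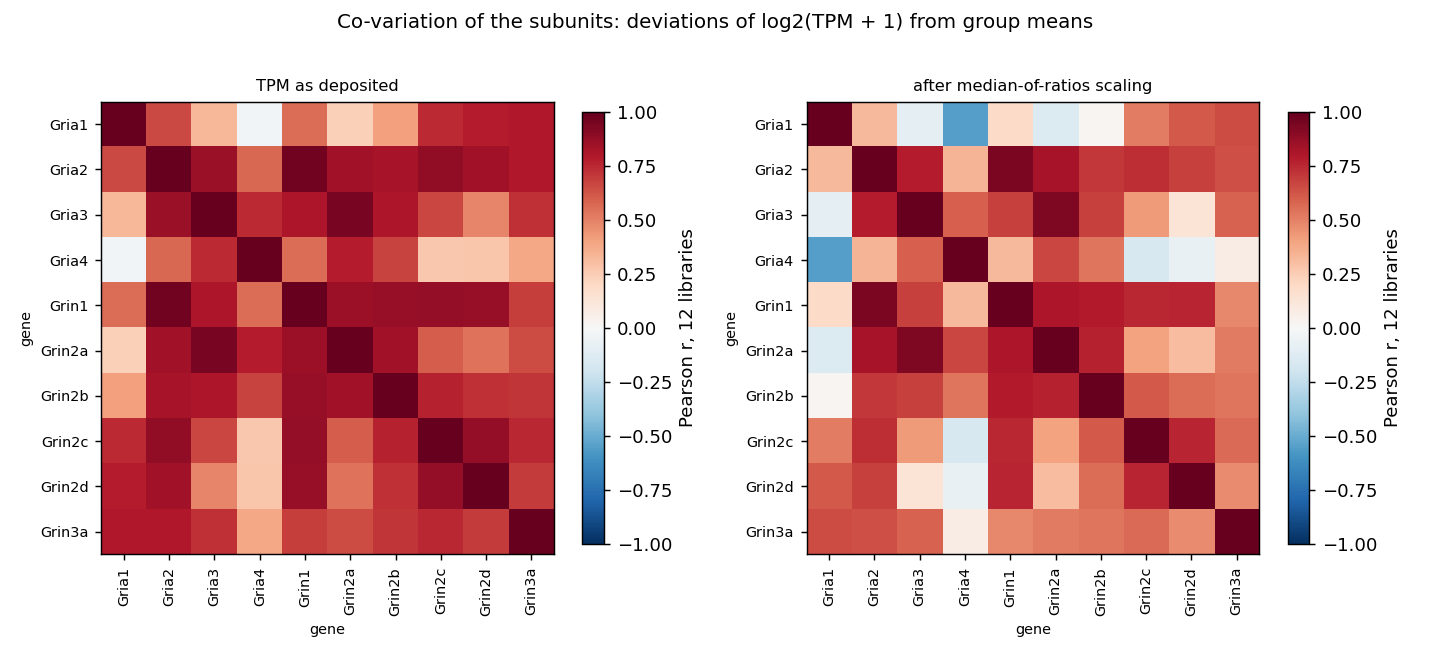
Pearson correlation (colour) between members of the deviations of log2(TPM + 1) from the group means over 12 libraries, for TPM as deposited (left) and after median-of-ratios scaling (right). Gria2 and Grin1 stay near 0.95 in both panels, and Gria1 with Gria4 turns from near 0 to -0.55.

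The promoters of that closest pair are shown, from RefSeq (GRCm38.p6), as windows of 300 bases that reach from upstream of the gene's start to just past it, on the gene's own strand. They are Grin1 at chr2:25319138-25319437 and Gria2 at chr3:80802786-80803085, both on the minus strand, with matches to the GC box GGGCGG, on either strand, in capitals.
Grin1: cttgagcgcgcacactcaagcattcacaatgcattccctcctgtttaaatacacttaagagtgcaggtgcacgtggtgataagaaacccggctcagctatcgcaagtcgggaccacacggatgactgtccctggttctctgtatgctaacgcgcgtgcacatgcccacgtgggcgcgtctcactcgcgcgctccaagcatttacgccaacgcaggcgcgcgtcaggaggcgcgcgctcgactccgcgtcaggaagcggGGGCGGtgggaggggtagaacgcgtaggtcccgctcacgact
Gria2: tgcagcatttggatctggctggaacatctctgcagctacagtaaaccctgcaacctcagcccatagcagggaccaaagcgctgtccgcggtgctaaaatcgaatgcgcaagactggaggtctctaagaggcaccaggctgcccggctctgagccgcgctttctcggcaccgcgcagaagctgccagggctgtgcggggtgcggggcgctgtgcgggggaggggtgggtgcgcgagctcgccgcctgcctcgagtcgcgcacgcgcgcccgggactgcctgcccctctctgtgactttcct
Promoters of 5 members (Grin1, Gria2, Grin2d, Gria4 and Grin2c) were matched by name. The windows held 60.7% (Grin1), 65.7% (Gria2), 56% (Grin2d), 59.7% (Gria4) and 70% (Grin2c) G or C. All 5 lay above the median of 52.7% over 32851 RefSeq promoters. Grin1 held 1 GC box, Grin2c 3 and the others 0, while 35.7% of all promoters held at least 1. The cyclic AMP response element TGACGTCA and the Egr site GCGTGGGCG, also searched on both strands, occurred in 0 of the 5, and in 1.79% and 0.612% of all promoters.

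The genes whose deviations were most like a member's were drawn from 9502 well expressed genes, by Pearson r over the 12 libraries. For Gria1 they were Ntrk2 (0.988), Cbl (0.978) and Tnks (0.976). For Grin2a they included Trim9 (0.992) and Pclo (0.985), and for Grin2b Mras (0.977), Camk2a (0.976) and Lrrc4 (0.976). Grin1 was closest to Zfp385a (0.989), Gria2 to Fam20b (0.987), Gria3 to Ppm1l (0.991), Gria4 to Flrt2 (0.961), Grin2c to Lhfpl4 (0.987) and Grin3a to Farp1 (0.994).

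The receptors' partners were read against 4.73% of all genes called in the strain contrast of controls and 7.7% under CRS (18.7% and 23.8% at an unadjusted p under 0.05). Of 20 AMPA receptor auxiliary genes (TARPs, cornichons and other proteins that ride on the channel) and 28 scaffold and trafficking genes, 0 were called in any single-strain or single-treatment contrast, the interaction or the averaged restraint effect (limma). At an unadjusted p under 0.05, between 0 and 2 auxiliary and between 0 and 3 scaffold genes passed in each of these contrasts. Their median differences were -0.15 and -0.04 in the strain contrast of controls, beside -0.10 for all genes. Of 14 tested signalling and RNA-editing genes, 1 was called: Neto2, whose product accompanies kainate receptors, was lower in BALB/c under CRS, at 20.4 ± 1.08 TPM against 29.5 ± 2.58 TPM in B6 (SD, n = 3 each; log2 difference -0.51, adjusted p 0.0356, limma). That call was lost without any 1 of the 6 CRS libraries (adjusted p 0.0554 to 0.143, limma), with no filter on low values (adjusted p 0.053, limma) or when libraries were rescaled by median of ratios (-0.44, adjusted p 0.0617, limma), and with the striatal (-0.32, adjusted p 0.575, limma) or oligodendrocyte score (-0.40, adjusted p 0.552, limma) as a covariate. With these scores the calls over all tested genes under CRS fell from 1264 to 242 and 258 (limma).

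Among 7 tested kainate and delta receptor genes, Grid1 was lower in BALB/c controls, at 20.8 ± 0.985 against 28.8 ± 1.23 TPM (SD, n = 3 each; -0.45, adjusted p 0.0387, limma). Grik4, a kainate subunit gene, was higher in BALB/c under CRS, at 12.9 ± 0.763 against 7.78 ± 0.745 TPM (SD, n = 3 each; 0.67, adjusted p 0.0342, limma). Leaving out single libraries ended both calls: any 1 of B6 control 2 or 3, B6 CRS 14, BALB/c control 5, 9 or 10 or BALB/c CRS 15 for Grid1 (adjusted p 0.0524 to 0.135, limma), and any 1 of the 6 CRS libraries or BALB/c control 5 for Grik4 (adjusted p 0.052 to 0.129, limma). The Grid1 call was also lost with median-of-ratios scaling (-0.34, adjusted p 0.0754, limma) and with the striatal (-0.42, adjusted p 0.125, limma) or oligodendrocyte score (-0.41, adjusted p 0.442, limma) as a covariate. That of Grik4 was lost with no filter on low values (adjusted p 0.0661, limma), and with the striatal score its difference was 0.13 (adjusted p 0.829, limma) and with the oligodendrocyte score 0.43 (adjusted p 0.654, limma). Over all tested genes these scores took the calls from 777 to 540 and 281 in controls, and from 1264 to 242 and 258 under CRS (limma).

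Averaged over the treatments, the added contrast in which 18.4% of all genes were called, the TARP gene Cacng4 was lower in BALB/c (-0.93, adjusted p 0.0075, limma), as was the kainate subunit gene Grik2 (-0.49, adjusted p 0.00646, limma), and both calls remained in each fit that left out 1 library. The TARP gene Cacng3 (0.47, adjusted p 0.0468), Adarb2 (0.67, adjusted p 0.018) and Grik4 (0.45, adjusted p 0.022) were higher and Neto2 (-0.30, adjusted p 0.0393) lower in BALB/c (limma), and each of these 4 calls was lost without at least 1 single library. All 6 genes named in this contrast lost their calls with either the striatal or the oligodendrocyte score as a covariate, and Cacng3 changed sign. Over all tested genes the calls in this contrast fell from 3021 to 539 and 368 with these scores (limma). With no filter on low values the calls of Cacng3 (adjusted p 0.0944) and Neto2 (0.0559) were lost, and with median-of-ratios scaling that of Neto2 (0.134, limma). Among scaffold genes 0 of 28 were called and 4 had an unadjusted p under 0.05 (limma), beside 18.4% and 32% of all genes.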

How the data were processed

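RNA from 12 punches of medial prefrontal cortex was sequenced from stranded mRNA libraries (TruSeq) as paired 150 bp reads to about 6 Gb each, per the labels' protocols. The submitters' processing notes name cutadapt 2.9, Salmon and GRCm38; the annotation and strand setting are not given in the sources used here. The deposited table gives 147902 rows in TPM, a unit read from columns of equal total and non-integer values, with 1 column per sample matched by title; TPM keeps no depth, so precision rests on the spread between libraries. Rows of 1 gene name were added up. The 16423 genes that reached 1 TPM in 3 or more libraries entered the test on log2(TPM + 1), which understates changes of low genes, with limma 3.58.1 in R 4.3.3 (4 group means, 8 residual degrees of freedom, intensity trend), with Benjamini-Hochberg adjustment over all tested genes and a threshold of 0.05. The test was tried on simulated data.

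The members and lists were chosen with earlier results of these data known. All 10 members are named; pathway genes are named where called (at most 5 per list and contrast), and for the genes most like a member the 3 highest correlations were computed among genes with a mean log2 value of at least 3. Alternatives changed the pseudocount (0.1), the filter (none, or a mean of 5 TPM), the scaling and the covariates, added a block on library number, or left out each library. Leaving out 2 libraries, and the strain contrast averaged over treatments, were added after the data had been seen. Transcript sequences are from GENCODE M21. Some items are not reported here.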

Additional observations from a re-analysis of the deposited data

How the results depend on the processing

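In the 6 planned contrasts 0 members were called under each of the settings that kept all 12 libraries. Leaving out single libraries gave 0 to 1 called in the strain contrast of controls (Gria1, without BALB/c CRS 12) and 0 in the other 5. Without BALB/c CRS 12, 894 of the 16316 tested genes were called in the strain contrast of controls (limma). With library numbers 9, 12 and 13 as a replicate block, 0 members were called in the 6 planned contrasts. Deviations of libraries sharing a number correlated at -0.24, -0.03 and -0.04. With so few pairs this cannot exclude a pairing, and the titles do not say what the numbers stand for. The replicate block kept the averaged Gria1 call (adjusted p 0.0345, limma) and ended those of Neto2 under CRS (0.0857) and averaged (0.0832), Grid1 (0.0974), Grik4 under CRS (0.0757) and Cacng3 (0.0956).

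For the strain difference averaged over treatments, 1 member was called. With no filter on low values, the striatal score, the oligodendrocyte score or 2 libraries left out, 0 were called. Leaving out single libraries gave 0 to 2, the second being Grin2a without B6 control 9. In that fit 3787 of the 16298 tested genes were called (limma).

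Signs of small differences turned as follows (log2, BALB/c minus B6). With the striatal score they were -0.26 (Gria3), -0.17 (Gria4) and -0.22 (Grin2a) in controls, and -0.54 (Gria3), -0.36 (Gria4), -0.36 (Grin1), -0.58 (Grin2a), -0.49 (Grin2b) and -0.15 (Grin3a) under CRS. With the oligodendrocyte score they were -0.25 (Gria3), -0.15 (Gria4), -0.30 (Grin2a) and -0.0053 (Grin2d) in controls, and -0.10 (Gria3), -0.026 (Gria4), -0.16 (Grin1), -0.11 (Grin2a) and -0.34 (Grin2b) under CRS. Averaged, Cacng3 turned to -0.059 and -0.017 with these scores. Median-of-ratios scaling gave 0.016 for Gria2 and 0.10 for Grin1 in controls. Leaving out 2 libraries gave -0.11 (Gria3), -0.10 (Gria4) and -0.022 (Grin2a) in controls and 0.040 (Gria2) under CRS. Leaving out single libraries gave in controls -0.20 to 0.024 (Gria2), -0.11 to 0.34 (Gria3), -0.10 to 0.29 (Gria4), -0.12 to 0.16 (Grin1) and -0.022 to 0.62 (Grin2a), and under CRS -0.20 to 0.040 (Gria2), -0.043 to 0.22 (Grin1), -0.027 to 0.17 (Grin2b) and -0.30 to 0.0023 (Grin2c). The cause of these turns was not tested. Grin2d has no value at a mean of at least 5 TPM. Group means of the TPM levels moved by less than 1 SD under median-of-ratios scaling. On leaving out 1 of 3 libraries a group mean cannot move by 1 SD of those libraries, so that comparison shows nothing about robustness. Depth is unknown from TPM, so counting error could not be separated from the spread between libraries.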
